A study of Arabidopsis thaliana with 9 samples.

Results

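The immune MAP kinase cascade was followed as 10 of the 17605 genes in a table of leaf transcripts from *Arabidopsis thaliana* Col-0. The genes were taken by identifier: *MEKK1* (AT4G08500), *MKK1* (AT4G26070), *MKK2* (AT4G29810), *MKK4* (AT1G51660), *MKK5* (AT3G21220), *MKK9* (AT1G73500), *MPK3* (AT3G45640), *MPK4* (AT4G01370), *MPK6* (AT2G43790) and *MPK11* (AT1G01560). All 10 were in the table. Leaves of plants aged 5 weeks were analysed by RNA sequencing in 9 libraries, 3 per group. Control plants were untreated. For oviposition, plants spent 24 h with *P. brassicae* butterflies and 4 days in a growth chamber, and the eggs were taken off shortly before the larvae would hatch. For egg extract (EE), 2 drops of 2 µL were placed on the underside of 2 leaves on each of 4 plants, and leaves were collected after 5 days. The labels do not say how leaves of the 4 plants were combined in a library, and the untreated leaves received no mock drop.

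A MAP kinase cascade passes a signal through 3 ranks of protein kinases. A MAP kinase kinase kinase (MAP3K) phosphorylates a MAP kinase kinase (MKK), which phosphorylates a MAP kinase (MPK) on a threonine and a tyrosine of its activation loop. In plant immunity, receptors at the cell surface start the cascade after they bind molecules from microbes or other attackers. *MEKK1*, *MKK1*, *MKK2* and *MPK4* form a branch whose loss causes autoimmunity in *Arabidopsis*, while *MKK4*, *MKK5*, *MPK3* and *MPK6* form a branch that acts on transcription factors, ethylene production and camalexin synthesis. RNA sequencing measures transcripts of these kinases and not their phosphorylation.

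The site at which the cascade acts is shown first, because it is what the 4 MAP kinases have in common. The coding sequence around the TEY motif was read from the RefSeq genome of *Arabidopsis* (TAIR10.1), and the codons of the threonine, glutamate and tyrosine are in capitals.
MPK3, chr3:16757751-16757807, plus strand: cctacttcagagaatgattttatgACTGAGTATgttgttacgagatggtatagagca
MPK6, chr2:18139874-18139930, plus strand: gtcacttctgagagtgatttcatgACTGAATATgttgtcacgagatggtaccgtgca
MPK4, chr4:568183-568239, plus strand: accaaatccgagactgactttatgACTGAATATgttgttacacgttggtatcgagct
MPK11, chr1:203402-203458, plus strand: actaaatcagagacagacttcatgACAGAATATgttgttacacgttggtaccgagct
The threonine is residue 196 of MPK3, residue 221 of MPK6, residue 201 of MPK4 and residue 198 of MPK11. Over these 57 bases *MPK4* and *MPK11* had 89.5% of bases in common, and *MPK3* and *MPK6* had 80.7%. Across whole coding sequences *MPK4* and *MPK11* were identical at 85.3% of aligned bases, *MKK4* and *MKK5* at 82.0%, *MPK3* and *MPK6* at 70.1%, and *MKK1* and *MKK2* at 68.6%. The longest exact run shared by a pair was 40 bases, in *MKK4* and *MKK5*. How the counting treated reads that match more than 1 gene is not given in the sources used here.

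The libraries held 37348236 to 47057692 reads over the genes of the table, as recovered from the deposited log2 values, and the members had between 96 and 15756 reads in a library. All 5 markers of leaf mesophyll were in the table, at log2 values of 6.32 to 16.1, as were the 3 guard cell markers at 1.44 to 5.30. The 2 root markers and the 2 flower markers were not among its genes. In bulk leaf RNA, fewer cells of a type and less RNA per cell cannot be told apart. The size by which the deposited values scale each library, divided by the reads it held, was 0.700 in control replicate 3 and 0.857 in oviposition replicate 1, and 0.946 to 1.20 in the other 7 libraries. A ratio under 1 sets the values of a library higher than CPM over its own reads would. Control replicate 3 and oviposition replicate 1 were the lowest libraries of their groups for *MEKK1*, *MKK2* and *MPK6*. The part of the scaling in that was not tested.

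The kinases of the cascade were transcribed at very different levels in untreated leaves. Per kb of exon, *MPK3* stood first with a median of 123 CPM (read counts scaled to library size) in controls, with a range of 101 to 137 over the 3 libraries. *MKK2* followed with a median of 40.6 CPM per kb, then *MKK1* with 35.4, *MPK6* with 30.4, *MPK4* with 19.7 and *MKK9* with 22.9, in the order of their mean log2 levels. At the lower end came *MEKK1* with 10.4 CPM per kb, *MKK5* with 7.96, *MKK4* with 5.11 and *MPK11* with 4.83. Among neighbours in this order, control libraries did not overlap between *MPK3* and *MKK2* or between *MPK6* and *MPK4*. All other neighbours overlapped. Without the correction for length, the control mean of *MPK3* exceeded that of 96.7% of the genes in the table, and that of *MPK11* exceeded 23.4%.

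None of the 10 kinase genes passed the test after oviposition or EE, in comparisons where few of all genes did. Values are log2 normalized CPM, and the test was limma over all 17605 genes with an adjusted p under 0.05. After oviposition 0 of 10 members passed, against 1.5% of all genes. An unadjusted p under 0.05 was found for 0 of 10, against 7.69% of all genes. After EE 0 of 10 passed, against 3.02% of all genes, and again 0 of 10 had an unadjusted p under 0.05, against 13.4%. Blocked on the replicate number, limma gave 1 of 10 an unadjusted p under 0.05 after EE (*MKK4*), against 19.0% of all genes. The blocked fit also gave 1 of 10 after oviposition (*MKK1*), against 11.4% of all genes. Between EE and oviposition 0 of 10 passed, against 0.017% of all genes, with 0 of 10 at an unadjusted p under 0.05, against 2.85%. The count of members past the threshold was also 0 with voom on the recovered reads and under each of the other alternatives. The comparisons of oviposition and of EE share the same 3 control libraries.

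**Figure D1:**
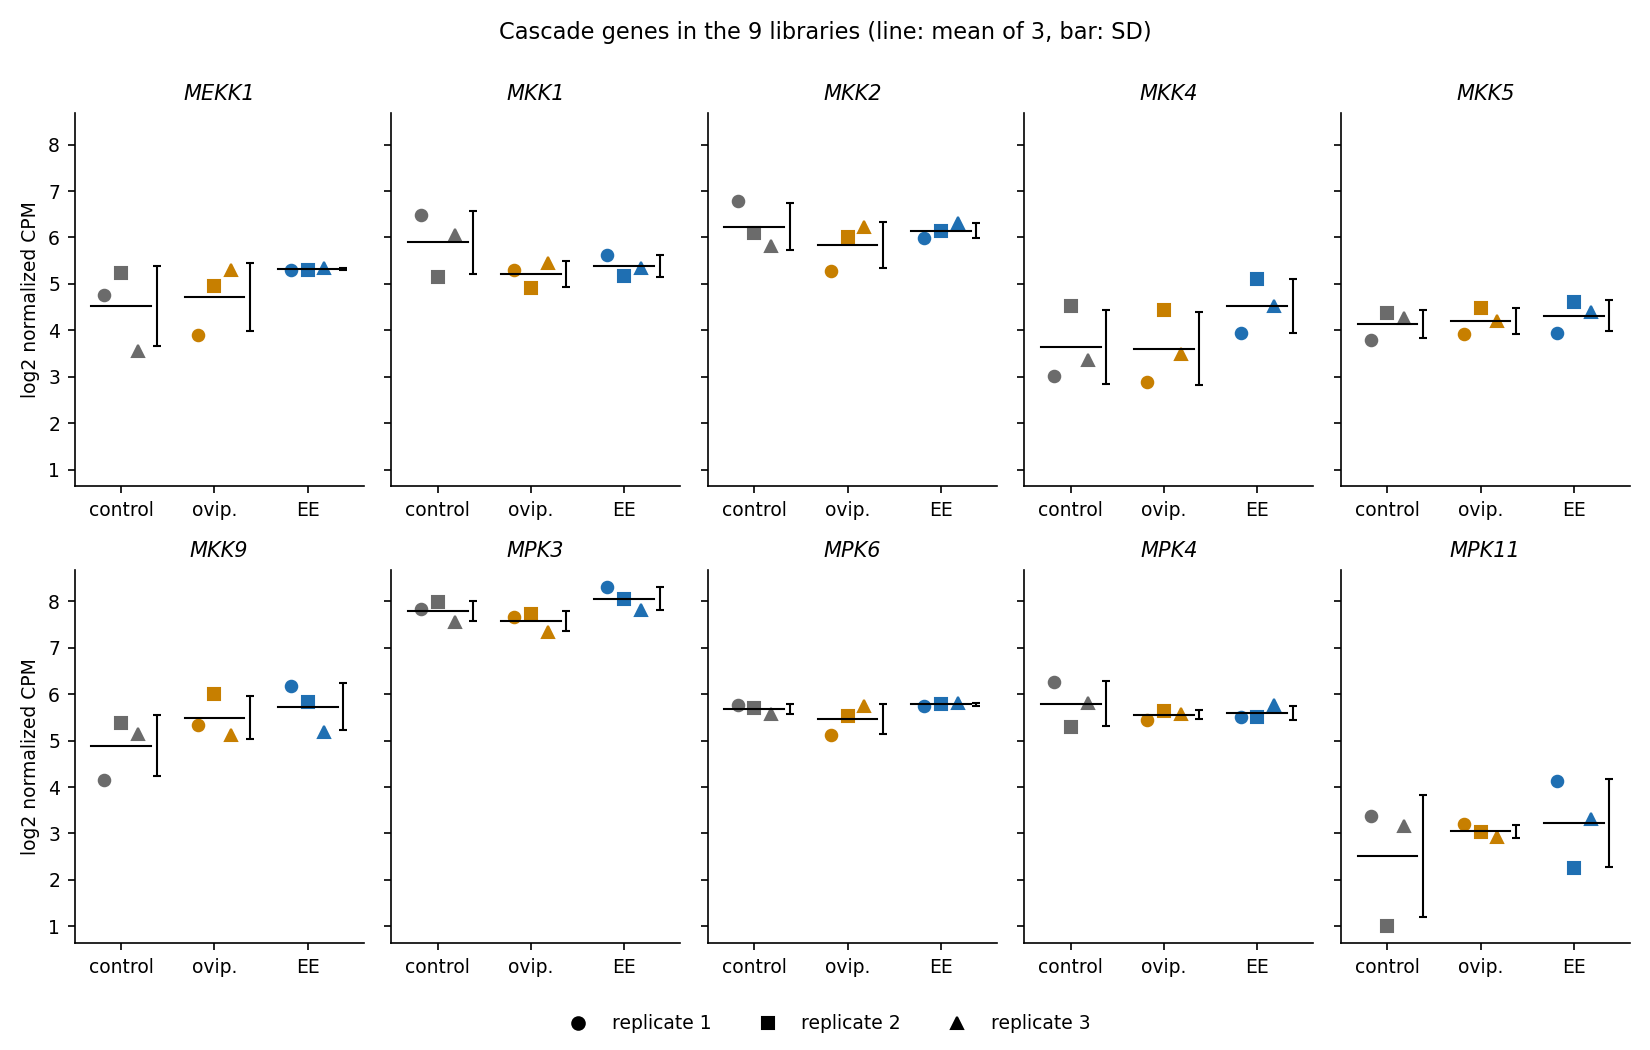
Log2 normalized CPM (y axis) of the 10 cascade genes in control, oviposition (ovip.) and EE leaves. Points are libraries, with the replicate number as the shape, horizontal lines are means of 3 and bars are SD. *MPK3* lies highest, between 7.33 and 8.32, and *MPK11* spreads most, from 1.002 to 4.13.

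*MEKK1* encodes the MAP3K at the top of the *MPK4* branch. Its values were 4.75, 5.24 and 3.56 in control replicates 1, 2 and 3, then 3.91, 4.94 and 5.30 after oviposition and 5.30, 5.30 and 5.35 after EE. Control replicate 3 and oviposition replicate 1 were the lowest, the libraries whose scaling ratios were 0.700 and 0.857, which set values higher. All 3 EE libraries lay above all controls, although the lowest EE library exceeded control replicate 2 by only 0.06. The SD was 0.86 in controls, 0.72 after oviposition and 0.03 after EE. The difference from control was 0.80 after EE (95% interval -0.25 to 1.85, adjusted p = 0.547) and 0.20 after oviposition (-0.85 to 1.25, adjusted p = 0.998). Without control replicate 3 the difference after EE was 0.32 and that after oviposition was -0.28, while leaving out each library in turn gave up to 1.16 after EE (without control replicate 2) and up to 0.61 after oviposition (without oviposition replicate 1).

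*MKK1* and *MKK2* are the MAP kinase kinases between *MEKK1* and *MPK4*, and neither passed the test. *MKK1* had 6.48, 5.15 and 6.05 in controls, 5.30, 4.91 and 5.45 after oviposition and 5.63, 5.16 and 5.35 after EE. Control replicates 1 and 3 were above all treated libraries, but control replicate 2 lay among them. *MKK1* gave the most negative estimates among the members, -0.67 after oviposition (-1.44 to 0.09, adjusted p = 0.772) and -0.51 after EE (-1.28 to 0.25, adjusted p = 0.609). With control replicate 2 left out they became -1.05 (adjusted p = 0.117) and -0.89 (adjusted p = 0.109). With control replicate 1 left out they became -0.38 and -0.22. *MKK2* had 6.79, 6.09 and 5.82 in controls, 5.29, 5.999 and 6.23 after oviposition and 5.99, 6.14 and 6.31 after EE, so that the groups overlapped. Its difference from control was -0.39 after oviposition (-1.12 to 0.33, adjusted p = 0.998) and -0.08 after EE (-0.81 to 0.64, adjusted p = 0.943).

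*MKK4* and *MKK5* encode the kinases that act on MPK3 and MPK6. *MKK4* had 3.02, 4.53 and 3.36 in controls, 2.88, 4.44 and 3.49 after oviposition and 3.94, 5.11 and 4.53 after EE. In every group replicate 2 was highest and replicate 1 lowest, and EE overlapped control because control replicate 2 was higher than EE replicate 1. *MKK4* showed the largest estimate of the members after EE, 0.89 above control (-0.28 to 2.06, adjusted p = 0.545) and 0.93 above oviposition (-0.24 to 2.10, adjusted p = 0.999). Compared within replicate numbers, EE exceeded control by 0.92, 0.58 and 1.17 and oviposition by 1.07, 0.67 and 1.04. Leaving out control replicate 1 or 2 moved the difference from control to 0.58 or 1.34. When the fit was blocked on the replicate number, the interval of the EE difference was 0.42 to 1.36, and its adjusted p was 0.0567, still above the threshold. *MKK5* had the same order of replicates, 3.79, 4.36 and 4.26 in controls, 3.91, 4.48 and 4.21 after oviposition and 3.95, 4.60 and 4.40 after EE. Its difference from control was 0.06 after oviposition (-0.54 to 0.66) and 0.18 after EE (-0.42 to 0.78), within a 2-fold change in either direction.

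*MKK9* encodes a kinase that can activate MPK3 and MPK6 and is linked to ethylene and camalexin. Its values were 4.15, 5.37 and 5.15 in controls, 5.33, 6.01 and 5.13 after oviposition and 6.18, 5.83 and 5.19 after EE. Control replicate 1 was well below the other 8 libraries, which overlapped between groups. The difference from control was 0.60 after oviposition (-0.30 to 1.496, adjusted p = 0.963) and 0.84 after EE (-0.06 to 1.74, adjusted p = 0.420), the lowest adjusted p of any member. The excess of EE over control fell unevenly on the replicate numbers, with 2.02, 0.46 and 0.04. Without control replicate 1 the difference after EE was 0.47 and that after oviposition 0.23, and without EE replicate 3 the difference after EE was 1.11.

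*MPK3* and *MPK6* are the MAP kinases of the second branch, and their values spanned 0.98 and 0.68 over the 9 libraries. *MPK3* had 7.83, 7.996 and 7.55 in controls, 7.67, 7.73 and 7.33 after oviposition and 8.32, 8.05 and 7.82 after EE. EE was higher than control within each replicate number, by small amounts. The differences were -0.22 after oviposition (-0.77 to 0.33, adjusted p = 0.998) and 0.27 after EE (-0.28 to 0.82, adjusted p = 0.744). *MPK6* had 5.77, 5.70 and 5.57 in controls, 5.12, 5.53 and 5.74 after oviposition and 5.75, 5.78 and 5.80 after EE. As for *MEKK1*, control replicate 3 and oviposition replicate 1 were the lowest of their groups. The change of *MPK6* was -0.21 after oviposition (-0.67 to 0.24, adjusted p = 0.998) and 0.10 after EE (-0.36 to 0.56, adjusted p = 0.882).

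*MPK4* encodes the MAP kinase below *MKK1* and *MKK2*, and *MPK11* its closest relative. *MPK4* had 6.27, 5.30 and 5.81 in controls, 5.45, 5.65 and 5.57 after oviposition and 5.51, 5.51 and 5.77 after EE. The treated libraries all lay between the lowest and the highest control. Its difference from control was -0.23 after oviposition (-0.81 to 0.34, adjusted p = 0.998) and -0.20 after EE (-0.77 to 0.38, adjusted p = 0.825). *MPK11* had 3.38, 1.002 and 3.16 in controls, 3.196, 3.02 and 2.92 after oviposition and 4.13, 2.25 and 3.32 after EE. Control replicate 2, with 96 reads, was far below the rest, and the next lowest library was EE replicate 2 with 248 reads. The difference of *MPK11* from control was 0.53 after oviposition (-0.96 to 2.03, adjusted p = 0.998) and 0.72 after EE (-0.77 to 2.21, adjusted p = 0.745). Without control replicate 2 these were -0.22 and -0.04, while leaving out other libraries gave up to 0.97 after oviposition (without control replicate 1) and up to 1.21 after EE (without EE replicate 2).

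**Figure D2:**
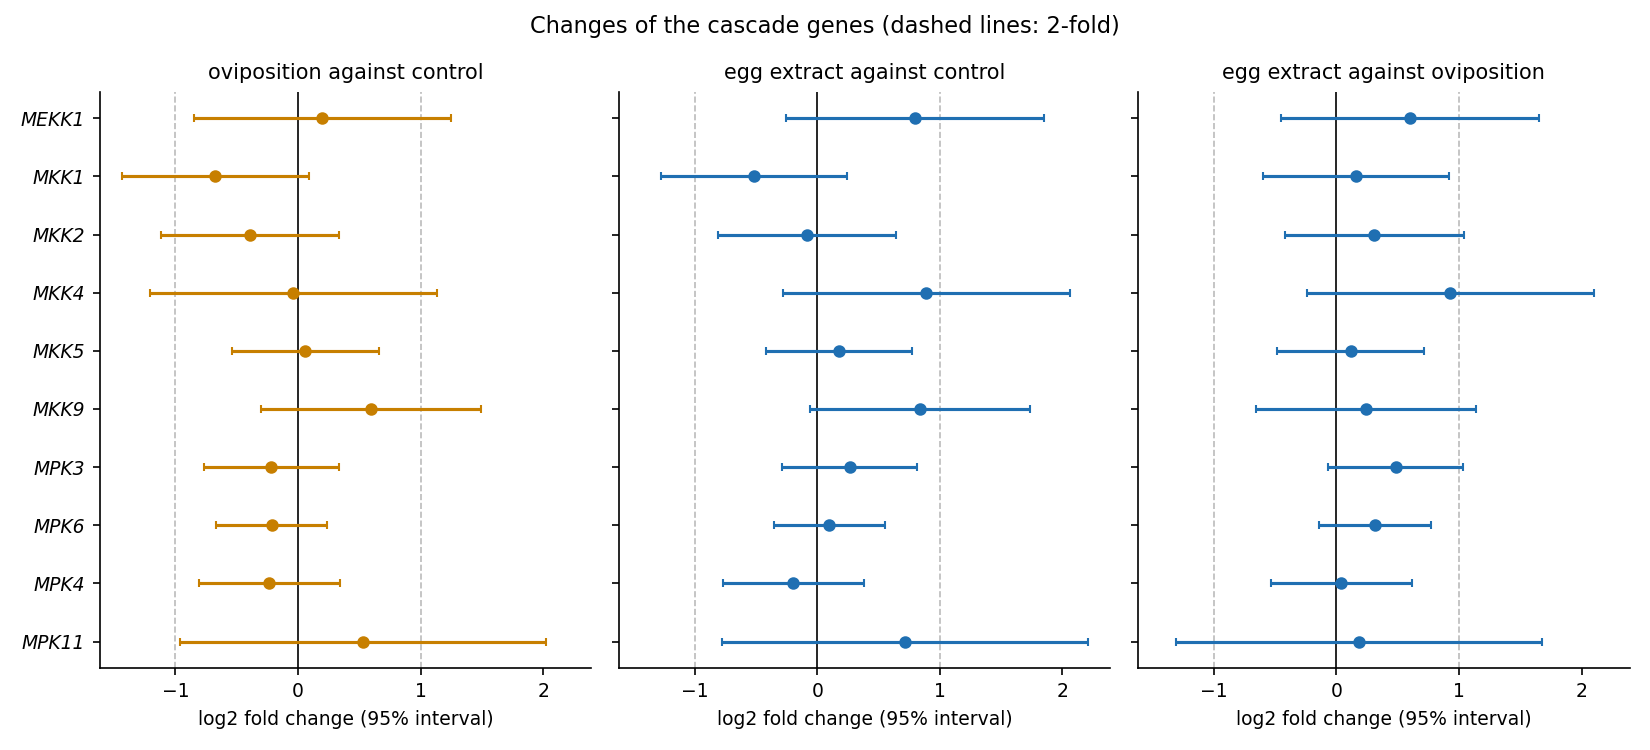
Log2 fold change (x axis) of each cascade gene in 3 comparisons, with the 95% interval of limma as a bar and a 2-fold change in either direction as dashed lines. Every interval of this fit, which has no replicate block, includes 0, and *MPK11* has the widest, from -0.96 to 2.03 after oviposition.

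How much change the data leave room for differed between the members. After oviposition the intervals of *MKK5*, *MPK3*, *MPK4* and *MPK6* lay within a 2-fold change in both directions, and after EE those of *MKK2*, *MKK5*, *MPK3*, *MPK4* and *MPK6* did. For *MEKK1*, *MKK4*, *MKK9* and *MPK11* both intervals also held a 2-fold rise. For *MKK1* both intervals held a 2-fold fall, as did those of *MKK2* and *MKK4* after oviposition. After oviposition the members had a median change of -0.13, with 4 of 10 means above control, beside a median of -0.02 and 47.7% of means above control over all genes. After EE their median was 0.22, with 7 of 10 means above control, beside -0.04 and 46.9% over all genes. No member had libraries that did not overlap between oviposition and control, against 9.24% of all genes, and *MEKK1* alone did so between EE and control, against 18.8%.

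EE was compared directly with oviposition to see whether extract and eggs left the cascade at the same level. The mean of each of the 10 genes was higher after EE than after oviposition, by 0.04 for *MPK4* to 0.93 for *MKK4*, with a median of 0.28. Over all genes the median was -0.04 and 45.9% of means were higher after EE. Of the 45 further cascade genes described below, 36 also had a higher mean after EE, so this direction was not particular to the 10. The 10 means come from the same libraries and are not independent. All adjusted p-values of the members in this comparison were 0.999 in limma, and the lowest unadjusted p was 0.0786, for *MPK3*. *MPK3* exceeded oviposition by 0.48 after EE (-0.07 to 1.03), and *MPK6* by 0.31 (-0.14 to 0.77). These 2 genes had EE libraries that all lay above the oviposition libraries, against 10.3% of all genes, and for *MPK6* the gap was 0.01. Without oviposition replicate 1 the difference of *MPK6* was 0.14, that of *MEKK1* was 0.19 and that of *MKK4* was 0.56. Without oviposition replicate 2 the difference of *MKK4* was instead 1.35. With the fit blocked on the replicate number, 2 of 10 members had an unadjusted p under 0.05, against 4.91% of all genes. They were *MKK4* (0.46 to 1.40, adjusted p = 0.371) and *MPK3* (0.01 to 0.95, adjusted p = 0.9001), and 0 of 10 passed. Leaving out 1 library turned the sign for *MKK5*, *MPK4* and *MPK11*.

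Several of the kinases took their highest or lowest value in the same replicate number in more than 1 group. *MKK4* and *MKK5* were highest in replicate 2 in all 3 groups and lowest in replicate 1. *MKK1* took its lowest value in replicate 2 in all 3 groups, and *MPK11* did so in control and EE. For replicate 2, 6 of 10 members deviated from their group mean in the same direction in every group, against 59.7% of all genes. The count was 5 of 10 for replicate 1, against 31.7%, and 3 of 10 for replicate 3, against 28.0%. Over all genes the deviations of replicate 2 libraries correlated between groups at r = 0.674 to 0.775, a description across genes that are not independent.

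**Figure D3:**
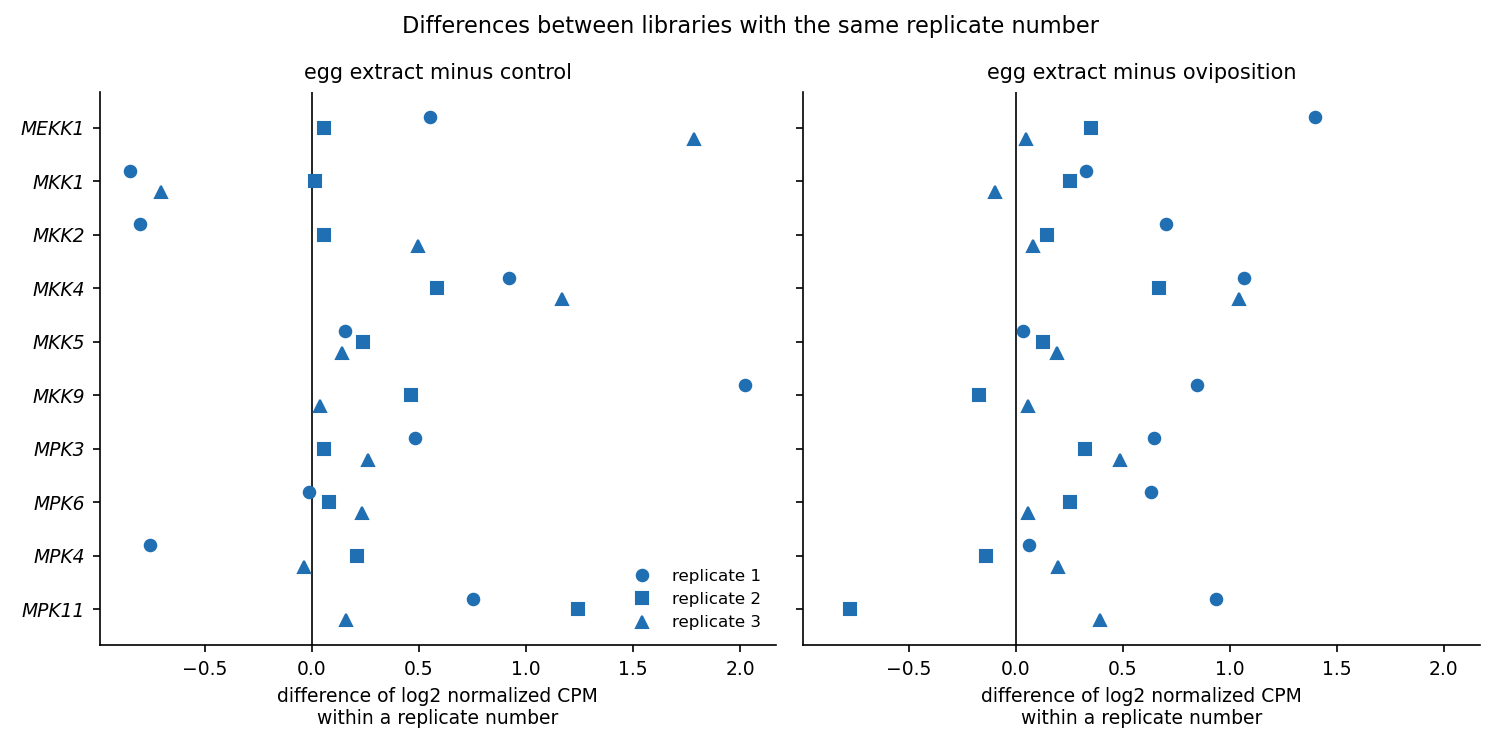
Differences of log2 normalized CPM (x axis) between EE and the library of the same replicate number in control (left) and oviposition (right). Shapes give the number. For *MKK4* the 3 differences lie between 0.58 and 1.17 from control and between 0.67 and 1.07 from oviposition.

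Genes whose values ran most like those of the 3 members with the largest changes after EE were picked by Pearson r over the 9 libraries. For *MKK4* they were *RHF1A*, a RING-H2 protein (r = 0.980), *PCK1*, a phosphoenolpyruvate carboxykinase (r = 0.975), and AT1G30160, a protein of unknown function (r = 0.962). For *MKK9* they were AT1G77360, which encodes a tetratricopeptide repeat protein (r = 0.946), *ECI1*, an enoyl CoA isomerase (r = 0.942), and the zinc finger gene *ZAT6* (r = 0.940). For *MEKK1* they included AT2G26920 at r = 0.989 and AT3G21295 at r = 0.988. An r above 0.9 was reached by 596 genes for *MEKK1*, by 67 for *MKK4* and by 8 for *MKK9*. The points share library scaling and replicate number, so these values only describe likeness.

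Around the 10 members, 53 further genes of the cascade were listed by role, of which 45 were in the table and 8 were not analysed here. After oviposition 1 of the 45 passed the test, against 1.5% of all genes, and after EE 3 did, against 3.02%, all higher than control. Between EE and oviposition 0 of 45 passed in limma, against 0.017% of all genes, and 0 also passed with voom. An unadjusted p under 0.05 in limma was found for 1 of 45, against 2.85% of all genes. When the fit was blocked on the replicate number, 5 of the 45 passed after EE, against 4.40% of all genes.

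No gene of the upstream ranks passed. All 6 other MAP3K genes in the table had means below control after oviposition, and 4 of 6 had means above control after EE. The largest change was that of *ANP3*, a MAP3K known from cytokinesis, with 1.33, 0.33 and 0.80 in controls, -1.65, 0.27 and 0.42 after oviposition and -0.19, -0.76 and 0.17 after EE. All 3 EE libraries of *ANP3* lay below the controls, against 18.8% of all genes without overlap. Its difference from control was -1.14 after oviposition (-2.56 to 0.28, adjusted p = 0.840) and -1.08 after EE (-2.50 to 0.34, adjusted p = 0.548). Its reads numbered 12 to 113 in a library. *MKK3*, which acts in a separate MAP kinase module, was the only other MKK measured, at -0.15 after oviposition (-1.12 to 0.82) and 0.20 after EE (-0.77 to 1.18). Of the 15 other MPK genes 10 had means below control after each treatment, with medians of -0.26 and -0.03. *MPK13* changed most among them after EE, by -0.63 (-1.88 to 0.63, adjusted p = 0.733). Its EE and control libraries overlapped, its reads numbered 43 to 163 in a library, and its change after oviposition was 0.18.

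The 6 MAP kinase phosphatases, which remove the activating phosphates, had medians of 0.06 after oviposition and -0.04 after EE. *AP2C1*, a phosphatase that inactivates MPK4 and MPK6, had 3.99, 2.82 and 2.86 in controls, 5.60, 5.00 and 3.19 after oviposition and 5.06, 3.76 and 2.96 after EE. Replicate 1 was the highest of each group, and the groups overlapped. The difference of *AP2C1* was 1.37 after oviposition (-0.23 to 2.98, adjusted p = 0.797) and 0.71 after EE (-0.90 to 2.31, adjusted p = 0.772). After EE the largest estimate of the list was that of *MKP1*, 0.79, beside 0.13 after oviposition. *MKP1* had 5.53, 5.96 and 4.51 in controls and 6.02, 6.25 and 6.09 after EE. Its EE libraries all lay above the controls, against 18.8% of all genes without overlap. No phosphatase passed, and the lowest adjusted p of the list after EE was 0.438 in limma.

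**Figure D4:**
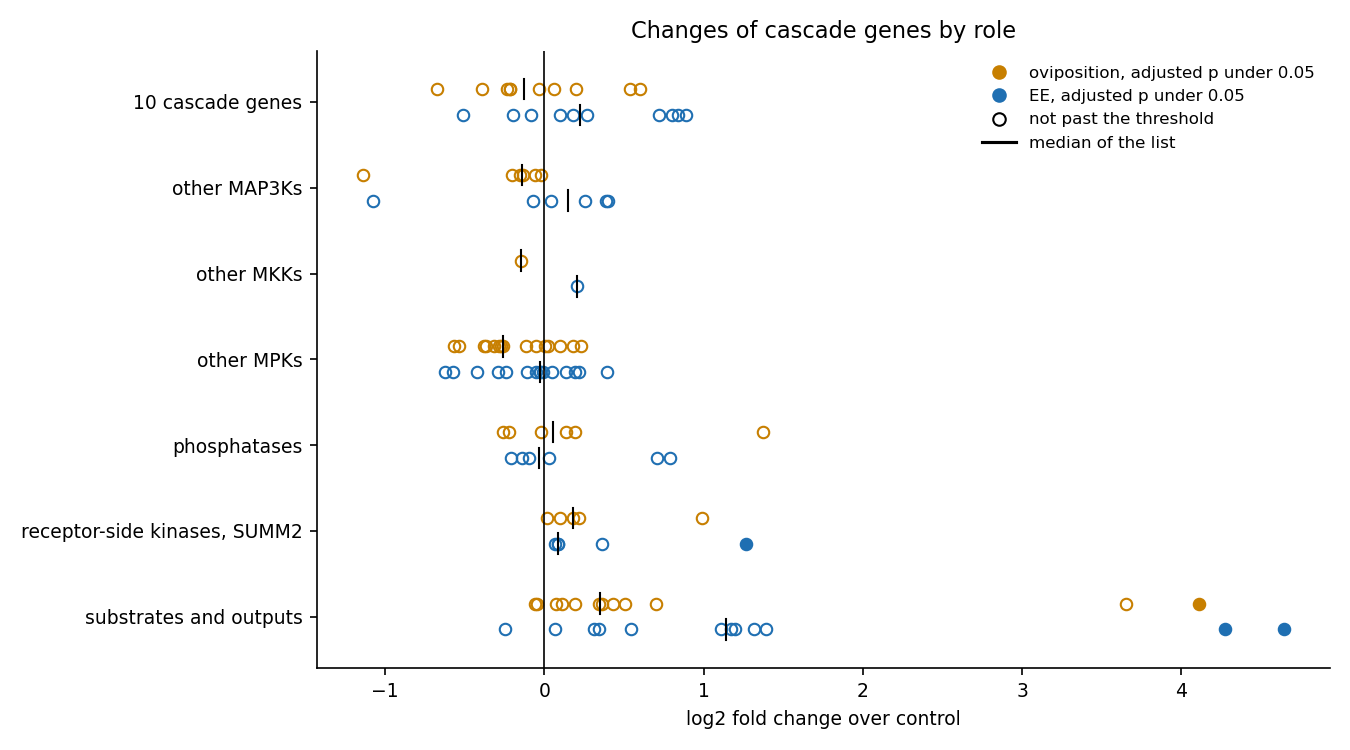
Log2 fold change over control (x axis) of the 10 cascade genes and 45 further genes by role, for oviposition and EE. Each circle is a gene, filled where the adjusted p was under 0.05, and vertical bars are medians of a list. The 4 filled circles belong to *FRK1* in both comparisons and to *ACS2* and *BIK1* after EE.

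Next to the receptors, *BIK1* rose after EE. It encodes a cytoplasmic kinase that immune receptors phosphorylate. *BIK1* (AT2G39660) had 3.45, 3.25 and 3.44 in controls, 4.34, 4.22 and 4.54 after oviposition and 4.76, 4.35 and 4.83 after EE. Every treated library was higher than every control. Of all genes, 9.24% were without overlap between oviposition and control and 18.8% between EE and control. The rise after EE was 1.27 on the log2 scale, or 2.41-fold (1.74 to 3.34, adjusted p = 0.0126), and the estimate after oviposition was 0.99 (0.52 to 1.46, adjusted p = 0.0614). Without EE replicate 1 the adjusted p of *BIK1* after EE was 0.0868, without EE replicate 3 it was 0.0876, and without every library numbered 2 it was 0.0673. The other 4 genes of this list, *BSK1*, *PBL27*, *CRCK3* and *SUMM2*, did not pass, and the median of all 5 was 0.18 after oviposition and 0.09 after EE. *SUMM2* encodes the immune receptor that guards the *MPK4* branch.

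Among 12 substrates and outputs of the cascade, *FRK1* rose after both treatments. *FRK1* (AT2G19190) encodes a receptor-like kinase that is widely used to report early immune signalling. Its values were 0.11, -0.35 and -1.84 in controls, 3.34, 3.14 and 3.78 after oviposition and 3.75, 3.91 and 3.08 after EE. The treated libraries stood clearly above the controls and overlapped each other. Reads numbered 93 over the 3 controls, with as few as 8 in a library, beside 1365 after oviposition and 1769 after EE. The fold sizes therefore rest on few control reads. *FRK1* was 17.3-fold higher than control after oviposition (7.88 to 38.1, adjusted p = 0.00563) and 19.4-fold higher after EE (8.82 to 42.6, adjusted p = 0.00253). EE and oviposition differed by 0.16 on the log2 scale (-0.97 to 1.30). In a model of the control and oviposition libraries alone, the adjusted p after oviposition was 0.0514, and without every library numbered 2 it was 0.0671.

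*ACS2* (AT1G01480) encodes an enzyme of ethylene synthesis that MPK3 and MPK6 phosphorylate, and its transcript was low in untreated leaves. It had 6, 18 and 4 reads in the controls, 38, 354 and 88 after oviposition and 254, 130 and 375 after EE. The treated libraries were all higher than the controls and spread widely. *ACS2* rose 25.0-fold after EE (6.74 to 92.8, adjusted p = 0.0195), while the estimate after oviposition was 12.6-fold (3.39 to 46.7, adjusted p = 0.0855). The adjusted p after EE was 0.0739 to 0.155 under 5 alternatives, among them voom on the recovered reads with 0.149, and without 1 library it reached 0.0738 (control replicate 1), 0.0638 (control replicate 3), 0.0937 (EE replicate 1) or 0.106 (EE replicate 3).

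*WRKY33*, chosen here after its values were seen, encodes the transcription factor that MPK3 and MPK6 phosphorylate and that drives camalexin genes. It had 6.11, 5.62 and 5.42 in controls, 6.16, 5.94 and 5.62 after oviposition and 8.09, 6.64 and 6.35 after EE. All EE libraries lay above all others, and EE replicate 1 was by far the highest. Of all genes, 18.8% were without overlap between EE and control and 10.3% between EE and oviposition. The difference from control was 1.31 after EE (0.34 to 2.29, adjusted p = 0.199) and 0.19 after oviposition (-0.78 to 1.17, adjusted p = 0.998), and EE exceeded oviposition by 1.12 (0.14 to 2.10, adjusted p = 0.999). Blocking on the replicate number brought the adjusted p after EE to 0.0498 for *WRKY33* and 0.0494 for *ACS6*, another enzyme of ethylene synthesis, whose estimate was 1.39. Over the 12 genes the median change was 0.35 after oviposition and 1.14 after EE, with 10 and 11 means above control. For the 10 kinases these medians were -0.13 and 0.22.

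**Figure D5:**
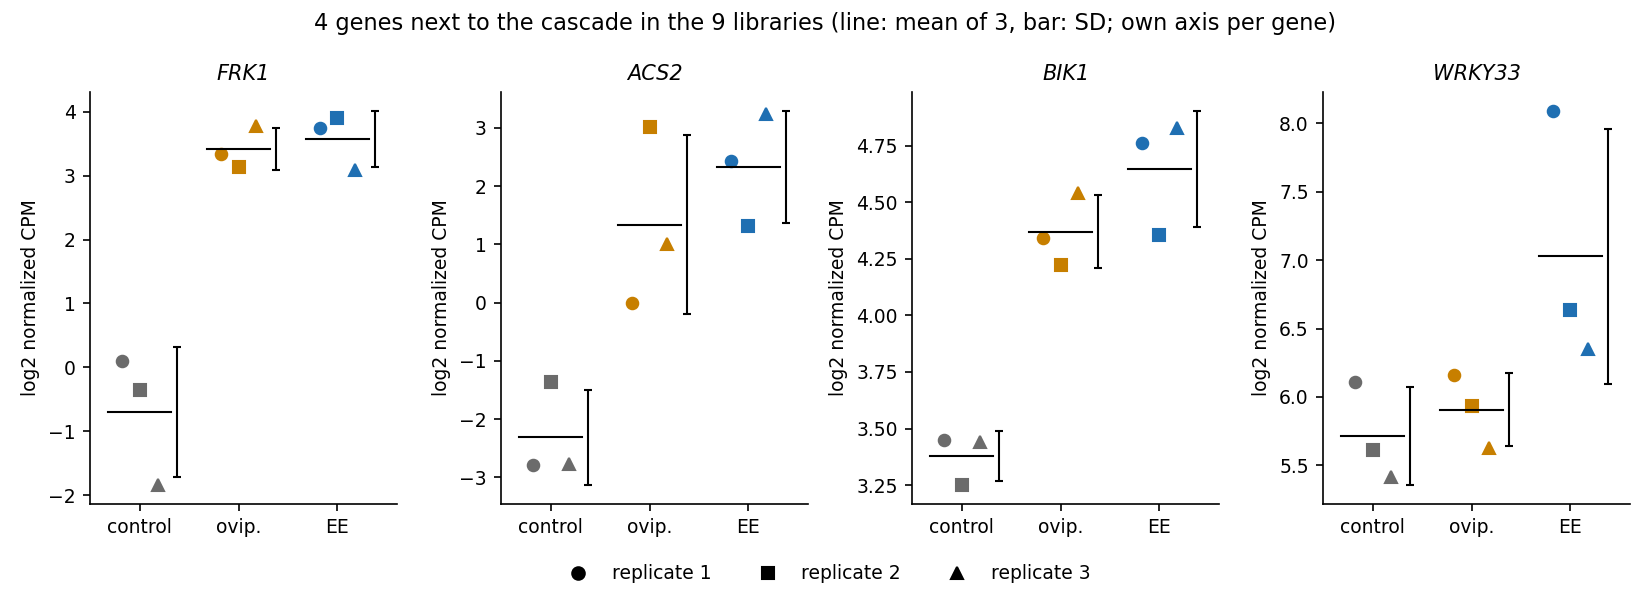
Log2 normalized CPM (y axis, a separate scale for each gene) of *FRK1*, *ACS2*, *BIK1* and *WRKY33* in the 9 libraries. Points are libraries, with the replicate number as the shape, horizontal lines are means of 3 and bars are SD. For *FRK1*, *ACS2* and *BIK1* every treated library lies above every control, and for *WRKY33* every EE library lies above all other libraries. Of all genes, 9.24% were without overlap between oviposition and control, 18.8% between EE and control and 10.3% between EE and oviposition.

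The bases upstream of *MPK6*, whose intervals stayed within a 2-fold change of control, and of *FRK1*, which rose, are shown because WRKY factors, which the cascade acts on, bind the W-box core TTGAC. The 250 bases before the annotated start of each gene were read from TAIR10.1, 5' to 3' on the strand of the gene, and each TTGAC, or GTCAA where it lies on the other strand, is in capitals.
MPK6, chr2:18137996-18138245, plus strand: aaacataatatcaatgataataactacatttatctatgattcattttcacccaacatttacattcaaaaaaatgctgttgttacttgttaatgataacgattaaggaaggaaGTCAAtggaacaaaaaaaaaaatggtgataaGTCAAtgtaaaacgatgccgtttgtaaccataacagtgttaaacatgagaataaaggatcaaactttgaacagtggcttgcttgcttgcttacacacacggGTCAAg
FRK1, chr2:8329945-8330194, minus strand: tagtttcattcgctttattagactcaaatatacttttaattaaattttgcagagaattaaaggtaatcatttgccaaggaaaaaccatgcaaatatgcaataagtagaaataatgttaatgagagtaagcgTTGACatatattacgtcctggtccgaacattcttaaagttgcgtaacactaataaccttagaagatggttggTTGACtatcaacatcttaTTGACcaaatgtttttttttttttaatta
Both windows held 3 matches, as did that of *MKK2*. *MPK4* and *MPK11* had 1 each, and the windows of the other 6 members had none. Of the other genes that passed after EE, *BIK1* had 1 match and *ACS2* had 0. *MPK4*, *MPK3* and *MKK5*, the last 2 with 0 matches, also had intervals within a 2-fold change of control. Of 17196 protein-coding genes in the table, 45.0% had at least 1 match and 3.51% at least 3. These matches describe letters and not binding.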

How the data were processed

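RNA from leaves of 3 independent experiments was made into stranded mRNA libraries and the reads were counted per gene. The authors aligned them to TAIR10 with STAR, normalized counts by the trimmed mean of M-values and library size, and deposited log2 normalized CPM of 17605 genes, with 1 column per library. The filter behind that number is not given in the sources used here. The submitters' processing notes also name cutadapt 1.5, HTSeq, edgeR 3.4.0 and limma 3.2. A second deposited table, of the authors' own fold changes and adjusted p-values, was not used.

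The deposited log2 values were fitted with limma 3.58.1 in R 4.3.3, with 1 mean per group over all 9 libraries and variances that follow the mean-variance trend. P-values were adjusted by Benjamini-Hochberg over all genes, with a threshold of 0.05. Reads were recovered by fitting a library size and a factor per library, after which 100% of values were whole within 0.01 reads. The fit was tested on simulated data. Exons for lengths, and all sequences, came from RefSeq, which had an entry for 17424 of the genes, each overlapping the deposited position on the same strand. Coding sequences of a pair were aligned base by base from end to end.

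The 10 members and the lists of other cascade genes were chosen with earlier results of these data known. From each list the text names genes past the threshold against control or, with none, the 1 with the largest change. *WRKY33*, *ACS6* and *MKP1* are named outside this rule, having been chosen after their values were seen. Markers of other cell types and the 3 genes most like a member over the 9 libraries were fixed in the same way, and 1 of the latter is not reported here.

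Same-numbered libraries were checked for pairing by the correlation of their deviations from group means across genes. It was 0.335, 0.775 and 0.318 for control with EE, 0.553, 0.764 and 0.526 for oviposition with EE, and 0.0226, 0.674 and -0.157 for control with oviposition. By the limit used here, that all values exceed 0.1, the first 2 comparisons count as paired. Libraries with different numbers could exceed this limit too. The correlation was 0.349 for control replicate 1 with EE replicate 3, and 0.432 for control replicate 3 with EE replicate 1. For replicates 1 and 3 the check therefore cannot show that control and EE libraries were matched. Alternatives were no trend, vooma weights, the replicate block, only the groups compared, quantile normalization, CPM over the recovered total, 1 CPM added, a minimum mean of 0, voom on recovered reads and each library left out. Plots were made in Python 3.11.15 (matplotlib 3.10.9).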

Additional observations from a re-analysis of the deposited data

How the results depend on the processing

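No member passed the threshold in any of the 3 comparisons under any of 20 alternatives, and the lowest adjusted p was 0.0563, for *MKK4* after EE with the replicate block and voom. That setting, and leaving out every library numbered 2, were chosen after seeing the data. With the replicate block alone the count of members was 0 in each comparison, and the block gave *BIK1* after oviposition an adjusted p of 0.0422 (0.99), in a comparison whose libraries do not count as paired. Of 600 recomputed member changes 579 kept their direction and 21 turned, all of them changes that had not passed. The cause of the turns was not tested. Many of the 600 could not turn, so the count does not measure stability. Dropping the trend, adding the replicate block, filtering on the mean and fitting only the groups compared leave each estimate as it was. Leaving out a library of the group not compared does so too. With CPM over the recovered total the median of all genes after EE moved from -0.04 to 0.16, and between EE and oviposition to 0.11. There *MKK4* after oviposition was 0.0166, *MKK2* after EE 0.13 and *MPK4* after EE 0.0181. Without every library numbered 2, *MPK11* after oviposition was -0.21 and *FRK1* between EE and oviposition was -0.14.

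Leaving out each library in turn, changes after oviposition ran from -0.28 to 0.61 for *MEKK1*, -0.46 to 0.41 for *MKK4*, -0.11 to 0.20 for *MKK5*, -0.48 to 0.00517 for *MPK4* and -0.22 to 0.97 for *MPK11*. After EE they ran from -0.29 to 0.20 for *MKK2*, -0.44 to 0.0442 for *MPK4* and -0.0375 to 1.21 for *MPK11*. Between EE and oviposition they ran from -0.0270 to 0.30 for *MKK5*, -0.0460 to 0.0847 for *MPK4*, -0.27 to 0.68 for *MPK11* and -0.00227 to 0.41 for *FRK1*. With 3 libraries per group the intervals are wide where replicates spread, as for *MPK11*.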
